A study of Mus musculus with 14 samples.

Results

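The genes described here encode the proteins of the cytosolic ribosome, measured in CD11b+ microglia and macrophages of the mouse brain 3 days after traumatic brain injury (TBI). They were chosen by name from the 13308 genes that the deposited genotype comparison in the injured hemisphere lists, as those whose symbol starts with Rpl or Rps followed by a digit, together with Rplp0, Rplp1, Rplp2 and Rpsa. Names ending in -ps, the Rps6k kinases and Rpl29 were left out. This gave 89 of the 33939 genes in the expression table. The 3 others of matching name there, Rpl3l, Rpl10l and Rpl32l, are not in that comparison and reached at most 0.114, 0.0667 and 1.64 CPM (read counts scaled to the depth of each library). Of the 89 members, 45 are proteins of the large subunit (3 of them in the stalk), 31 are core proteins of the small subunit and 12 are paralogs or annotated copies. The remaining gene, Rps19bp1, encodes a protein that binds a ribosomal protein and is not part of the ribosome itself. A further 6 members, Rpl6l, Rpl37rt, Rps3a2, Rps3a3, Rps4l and Rps12l1, are annotated as processed pseudogenes in GENCODE M21, so the name rule takes in these 7 genes that go against its label. Some genes of cytosolic ribosomal proteins, such as Fau and Rack1, have other names and are given apart.

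RNA was sequenced from 14 libraries of cells sorted on magnetic CD11b beads. Ctrl mice carried Cx3cr1-CreER+/- and cKO mice carried Cx3cr1-CreER+/- with Nhe1 flox/flox, both on C57BL/6 at 8 to 12 weeks of age and both given tamoxifen, so Cre was present in all of them and was driven by Cx3cr1, a gene of microglia and other mononuclear phagocytes. The sequenced mice are given as male, and all had a controlled cortical impact, so the contralateral (CL) hemisphere is the uninjured side of an injured brain and not that of a naive mouse. There were 4 Ctrl CL, 4 Ctrl IL (ipsilateral), 3 cKO CL and 3 cKO IL libraries under 8 mouse numbers, of which 6 stand for both hemispheres. The cKO IL library 784 and the cKO CL library 788 have no partner of the same number, and whether they came from 1 mouse cannot be told from the labels. The comparisons ask how the cells of the injured hemisphere differ from those of the other side in each genotype, and what the cKO genotype changes on each side.

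A ribosome joins a small subunit, which reads the mRNA, to a large subunit, which forms the peptide bond and releases the chain through its exit tunnel. Core proteins stand in equal numbers in the ribosome, and cells make them in step with each other. In vertebrates most of their mRNAs start with a C followed by a run of pyrimidines, the 5' terminal oligopyrimidine (TOP) tract, through which mTORC1 controls their translation. Their spliced mRNAs are short and abundant, and the genome holds many intronless copies of them, most of them processed pseudogenes.

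The start sites of RefSeq (GRCm38.p6) show the tract that the group is known for. Some members with the tract at the annotated start, and a few without it there, are printed from 15 bases before the start to 15 bases from it, 5' to 3', with capitals for the tract found nearest the start.
Rps6 (chr4:86857353-86857382, minus strand): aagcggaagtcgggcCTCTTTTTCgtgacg
Rps27 (chr3:90213634-90213663, minus strand): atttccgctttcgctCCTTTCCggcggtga
Rps27rt (chr9:114982725-114982754, minus strand): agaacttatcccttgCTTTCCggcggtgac
Rpl35a (chr16:33056467-33056496, plus strand, 1 of 3 starts): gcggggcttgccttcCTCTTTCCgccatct
Rpl13a (chr7:45128731-45128760, minus strand): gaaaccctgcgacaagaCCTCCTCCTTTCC
Rpl41 (chr10:128549154-128549183, minus strand): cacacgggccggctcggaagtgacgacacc
A start was found for 65 of the 89 members. A C followed by at least 4 bases that were each C or T, read on the transcribed strand only, stood at an annotated start of 14 of the 65 members (21.5%), against 3.01% of 27025 genes in the same table. With the C allowed up to 15 bases to either side, 45 members (69.2%) held it, against 44.9% of all genes. Rpl41 is an example with no match in this window.

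Before the results, 1 library has to be named. In the Ctrl IL library of mouse 3546 the 89 members together made up 0.203% of all CPM, the reads of a gene per 1e+06 reads of its library, against 0.536%, 0.559% and 0.609% in the other Ctrl IL libraries. The level in this library was the lowest of all 14 for 75 of the 89 members. A member's level there was 0.231 times the mean of the other Ctrl IL libraries at the median, ranging from 0.0642 to 1.24 times. It was also the library with the fewest reads, 12.2 M (1 M being 1e+06) against a median of 34.2 M and a highest depth of 41.6 M. The CL library of the same mouse was the lowest of its group too, at 0.319% against 0.483% to 0.508%. The comparisons that use Ctrl IL libraries are therefore given with and without Ctrl IL 3546.

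Other short transcripts shared the shift of that library. Among genes outside the group with a mean above 3 on the log2(CPM + 1) scale, the 287 with transcripts up to 600 bases were lower in Ctrl IL 3546 than in the other Ctrl IL libraries by a median log2 difference of -2.04, close to the -2.05 of the members. The median was -1.30 for 669 genes of 600 to 1000 bases and -0.26 for 2263 genes of 1000 to 2000 bases. It was 0.00 for 3839 genes of 2000 to 4000 bases and 0.31 for 2608 genes over 4000 bases. The members' own principal transcripts have a median length of 729 bases. Within the group, the ratio of Ctrl IL 3546 to the other Ctrl IL libraries had a median of 0.180 for 34 members of up to 600 bases, 0.235 for 37 of 600 to 1000 bases and 0.412 for 18 longer ones. Ctrl CL 3546 had the same order of length classes, from -0.58 for the shortest genes to 0.29 for the longest, with smaller differences in the 2 classes of up to 1000 bases and similar ones in the longer classes. The part that library quality or read depth played in this was not tested.

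**Figure D1:**
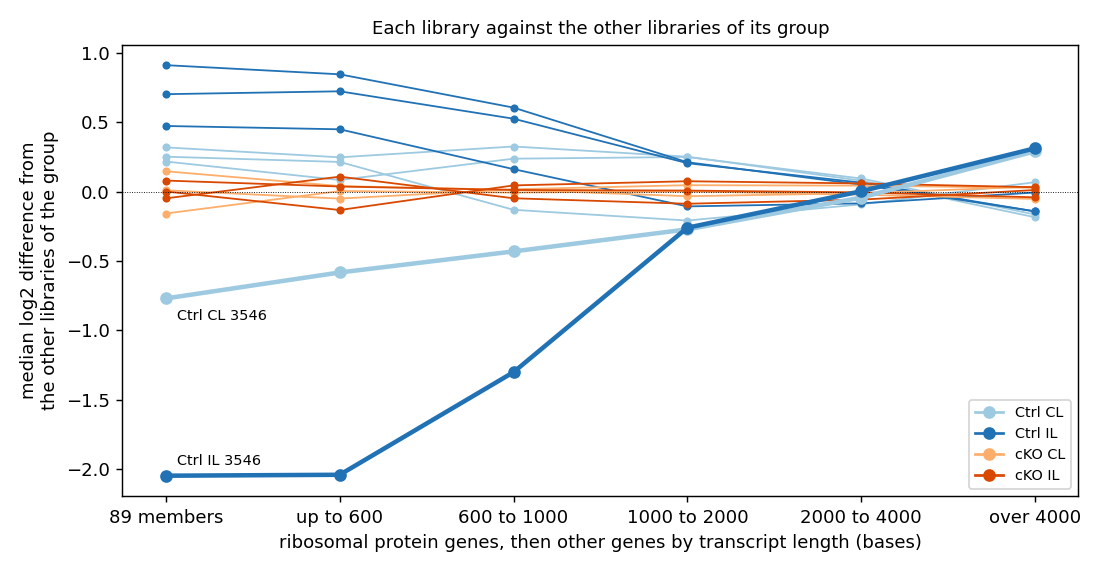
Median log2 difference of each library from the mean of the other libraries of its group (y axis), for the 89 ribosomal protein genes and for other genes in 5 classes of transcript length (x axis), with 1 line per library coloured by group. The Ctrl IL 3546 line starts at -2.05 for the ribosomal protein genes and -2.04 for other genes of up to 600 bases and rises to 0.31 for genes over 4000 bases, and the cKO lines lie between -0.16 and 0.15.

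Microglial genes were high throughout, with a sum of 13 markers between 30951 and 54821 CPM, and 6 neuronal markers summed to 2.76 to 21.1 CPM.

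In all, the ribosomal protein genes took a small share of these libraries, between 0.203% and 0.609% of CPM, and no member was at 0 in any library. The highest mean level per library was that of Rpl4, whose protein reaches into the exit tunnel, at 353 CPM, followed by Rplp0, the scaffold of the stalk that recruits elongation factors, at 341 CPM. Rps3, at the mRNA entry site, had a mean of 239 CPM, Rps9 229 CPM and Rpl32 147 CPM. The lowest means were those of Rpl39l, a paralog of the exit tunnel protein Rpl39, at 1.70 CPM, Rpl17 at 2.69, Rps27 at 2.92, Rps12 at 3.65 and Rpl5, which carries 5S rRNA into the ribosome, at 3.74 CPM. The mean was above 100 CPM for 13 members and below 10 CPM for 16. On a scale that divides CPM by the length of the principal transcript, Rps9 came first at 305 CPM per kb, followed by Rpl32 at 284, Rplp0 at 251 and Rpl4 at 230, and Rpl5 was last at 1.83 CPM per kb.

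Near-identical copies stood beside most of the group. Of the 89 members, 83 share at least 10% of their 50-base stretches with a transcript of another gene in GENCODE M21, with a median of 4 such genes and up to 43 for Rpl21. At the median, 42.7% of a member's stretches occur in no other gene, and 54 members have less than 50% of their own. For 51 members the copies in the table together had more CPM than the member itself. A member's value thus depends on which gene was given the reads that both could have produced. Rps27 had 2.92 CPM and 1.35% of its stretches to itself, and its copy Rps27rt had 48.0 CPM. The copies of Rpl5, Rpl17 and Rps12, also among the lowest members, summed to 148, 54.8 and 15.9 CPM, so these ranks depend on that choice too. Rpl39l has no such copy, and Rps3 keeps 97.0% of its stretches. With all copies added, the share of CPM was between 0.371% in Ctrl IL 3546 and 1.14% in Ctrl IL 3545.

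**Figure D2:**
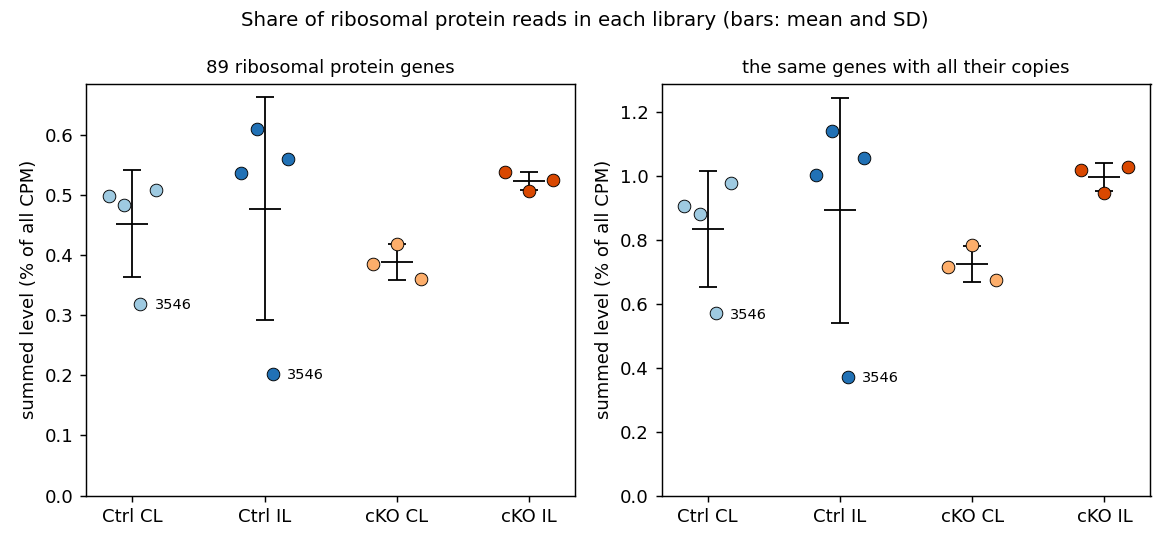
Summed level as a percentage of all CPM (y axis, from 0) in each library by group (x axis), for the 89 ribosomal protein genes at left and with all their copies at right. Points are libraries and bars are the mean and SD. The cKO IL libraries (0.507% to 0.537%) lie above the cKO CL libraries (0.359% to 0.419%), and both libraries of Ctrl 3546 lie below the rest of their groups.

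In cKO mice the ribosomal protein genes were higher in the injured hemisphere. The members summed to 3877 ± 297 CPM (SD, n = 3) in cKO CL and to 5230 ± 154 CPM (n = 3) in cKO IL, and the ranges of 3595 to 4188 and 5067 to 5373 CPM did not overlap. Of the 89 members 61 rose in IL, by 1.27-fold to 2.04-fold on the log2(CPM + 1) scale, which understates the change of low genes, 1 fell, and 27 did not pass the test (limma on log2(CPM + 1), with calls made where the p adjusted by Benjamini-Hochberg was no more than 0.05 and the level moved by 1.2-fold or more). Among all 16758 genes tested, 12.3% were called higher and 10.8% lower. The median change of the members was 0.56 on the log2 scale (1.47-fold), against 0.01 for all genes tested. All 61 members that rose had each cKO IL library above each cKO CL library, as did 6 further members, and this held for 18.1% of all genes tested. In bulk RNA, more of such transcripts per cell and more cells that hold many of them cannot be told apart.

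Both subunits took part. Of the 45 large subunit members 30 rose, and of the 31 small subunit members 24 rose, with median changes of 0.52 and 0.56. The stalk proteins Rplp0, Rplp1 and Rplp2 rose by 0.49 ± 0.13 (log2, SE), 0.46 ± 0.12 and 0.58 ± 0.13, with adjusted p of 0.0297, 0.0289 and 0.0160 by limma. For Rplp0 the values were 271, 291 and 236 CPM in cKO CL and 367, 374 and 328 CPM in cKO IL. All cKO IL values lay above all cKO CL values.

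The largest rises among members that passed the test were those of Rpl39l, Rpl19, Rpl35a, Rpl39 and Rpl36al. Rpl39l had 0.913, 0.619 and 1.39 CPM in cKO CL and 2.40, 2.59 and 3.77 CPM in cKO IL, a change of 1.03 ± 0.20 (adjusted p = 0.0101, limma), at 17 to 36 reads per CL library. The groups were apart, at a low level. Rpl39, its partner, lines the exit tunnel and had 9.02, 10.3 and 7.47 CPM in CL and 15.7, 14.4 and 16.5 CPM in IL, a change of 0.81 ± 0.15 (adjusted p = 0.00901, limma). Rpl19, a large subunit protein that bridges to the small subunit, had 29.7, 33.8 and 27.7 CPM in CL and 51.9, 51.5 and 54.2 CPM in IL, a change of 0.84 ± 0.10 (adjusted p = 0.00282, limma). Its IL values were within 3 CPM of each other. Rpl35a, one of the genes mutated in Diamond-Blackfan anemia, had 5.71, 7.71 and 9.06 CPM in CL and 13.6, 11.3 and 15.1 CPM in IL, a change of 0.83 ± 0.17 (adjusted p = 0.0135, limma). Rpl36al, a near relative of Rpl36a, had 56.0, 60.8 and 61.5 CPM in CL and 99.4, 91.1 and 109 CPM in IL, a change of 0.80 ± 0.08. Rpl36al had the lowest adjusted p of the group (0.00195, limma), followed by Rpl19.

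Members with further roles were among those that rose. Rps6, the target of the S6 kinases downstream of mTORC1, had 39.3, 42.5 and 32.9 CPM in cKO CL and 52.7, 57.9 and 51.4 CPM in cKO IL, a change of 0.56 ± 0.13 (adjusted p = 0.0206, limma). Rpsa, also known as the laminin receptor precursor, changed by 0.65 ± 0.13 and Rps27a, which is made as a fusion to ubiquitin, by 0.60 ± 0.15. Rpl13a, often used as a reference gene, changed by 0.46 ± 0.08 (adjusted p = 0.00765, limma), from 88.0, 95.9 and 91.5 CPM to 126, 113 and 123 CPM. Rpl41, which encodes the shortest protein of the ribosome, changed by 0.60 ± 0.12. Each of these 5 genes passed the test. Rps19bp1, the binding protein, had 15.2, 14.99 and 17.8 CPM in CL and 20.0, 20.1 and 17.4 CPM in IL, which overlap, and its change of 0.31 ± 0.13 did not pass (adjusted p = 0.135, limma). The most abundant members rose as well, Rpl4 by 0.52 ± 0.14, Rps3 by 0.54 ± 0.09, Rps9 by 0.38 ± 0.09 and Rpl32 by 0.62 ± 0.12.

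**Figure D3:**
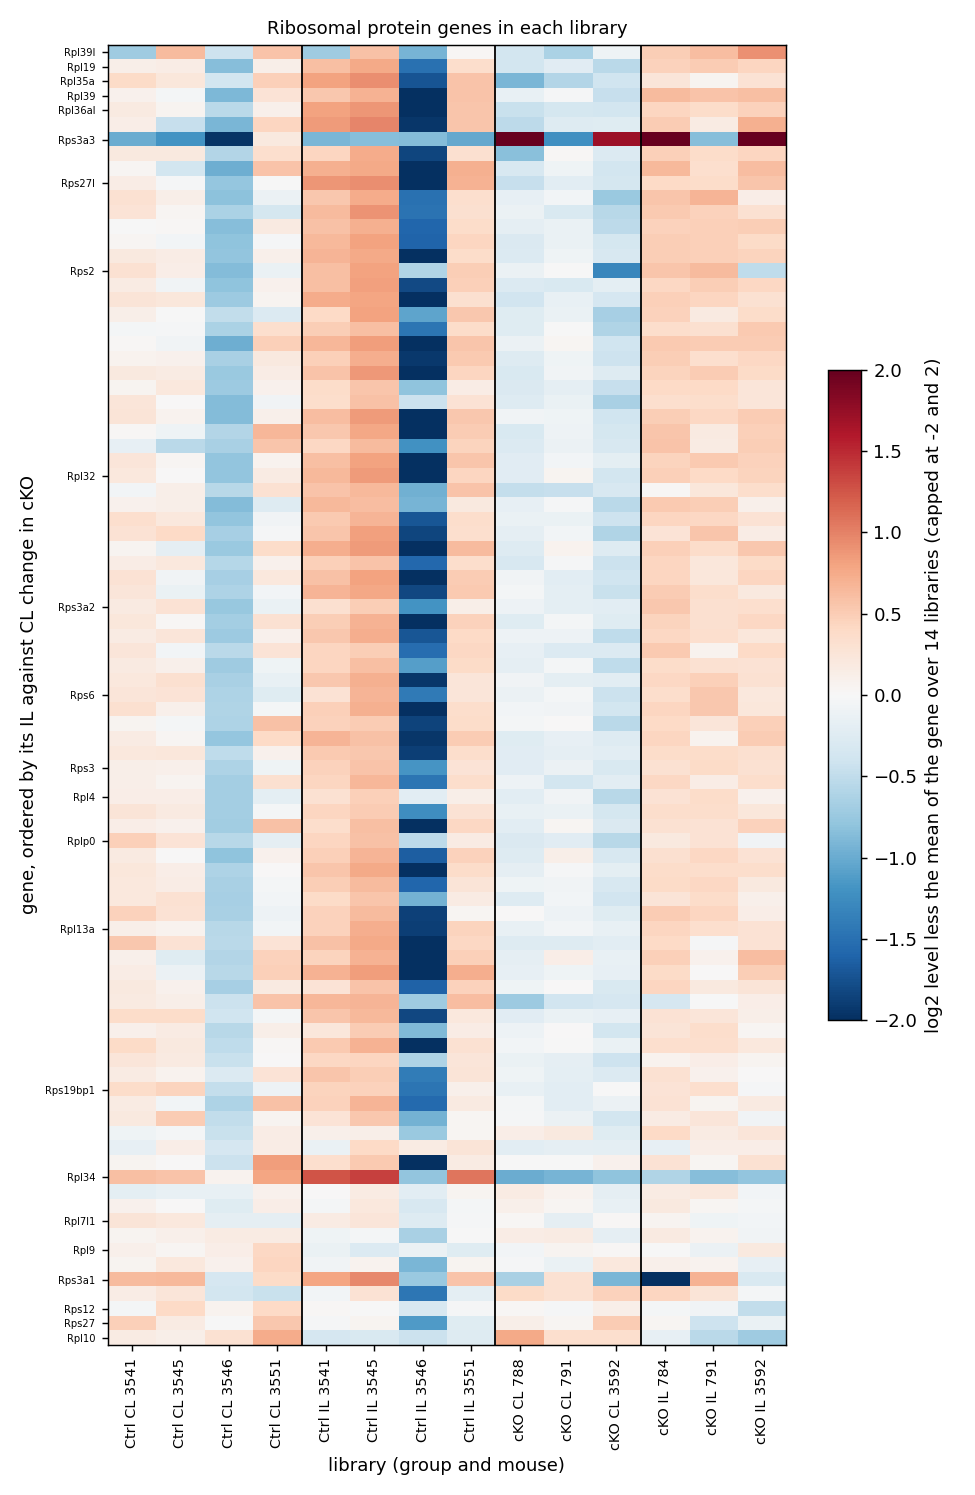
Level of each ribosomal protein gene (rows, ordered by the IL against CL change in cKO, with some of the genes described in the text labelled) in each library (columns, by group and mouse), as the log2 level less the mean of the gene over the 14 libraries, capped at -2 and 2. Most rows are below their mean in cKO CL, above it in cKO IL and far below it in Ctrl IL 3546, and Rpl34, Rps3a3, Rps3a1 and Rpl10 have patterns of their own.

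Among the members that did not pass, the changes ranged on both sides of 0 and 22 of 27 were positive, with a median of 0.23. Rpl7l1, a nucleolar relative of Rpl7, stayed between 125 and 151 CPM in the 6 cKO libraries, with a change of 0.02 ± 0.09 (adjusted p = 0.922, limma), while Rpl7 itself rose by 0.46 ± 0.11. Rpl3, Rps13, Rpl10a and Rpl9 had changes from 0.01 to 0.08. With copies added, the means in cKO CL and cKO IL were 321 and 410 CPM for Rpl3 and 47.0 and 67.9 CPM for Rps13. For Rpl9 they were 99.1 and 140 CPM, and in each of these genes the groups were then apart. For Rpl10a they were 115 and 128 CPM, and the groups overlapped. Rps2, at the mRNA entry site, had a large spread. It had 118, 131 and 53.5 CPM in cKO CL and 181, 185 and 92.5 CPM in cKO IL, with the low value of each group from mouse 3592, and its change of 0.69 ± 0.40 did not pass (adjusted p = 0.247, limma). Rps2 has 36 copies. With them added it had 221, 241 and 215 CPM in cKO CL and 342, 346 and 391 CPM in cKO IL, so mouse 3592 was no longer low in IL and the groups were apart.

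Of the 12 paralogs and copies 7 rose in cKO, and their partners were called in some cases and not in others. Rps27l, a paralog of Rps27, rose by 0.77 ± 0.11 in cKO (adjusted p = 0.00362, limma), whereas Rps27 had values of -0.39 ± 0.20 and Rps27rt of 0.18 ± 0.11, neither past the test. Rpl22 rose by 0.61 ± 0.13 and Rpl22l1, which can replace it in the ribosome, had a change of -0.02 ± 0.14. Rpl36a and Rpl36al both rose, as did Rpl6 and Rpl6l and also Rpl39 and Rpl39l. Rps3a2, a copy of Rps3a1, rose by 0.56 ± 0.09. Rpl37rt rose by 0.65 ± 0.13 and Rpl37 had a change of 0.29 ± 0.14 that did not pass. Rps12l1 rose by 0.56 ± 0.17, with no stretch of its own, and Rps12 had -0.24 ± 0.18. Rps4x and Rps4l had changes of 0.27 ± 0.12 and -0.17 ± 0.13. The difference between partners was not tested.

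The count of calls varied with the fit. With the mouse as a fixed replicate block, 40 members were called, 39 of them higher (8.49% of all genes were called higher). That fit rests on cKO mice 791 and 3592 alone, as the cKO libraries without a partner add nothing to its change. It is therefore not a check on all cKO libraries. With all 14 libraries in a single fit, which then share the spread of the Ctrl IL group, only Rpl10 was called among the members (10.1% of all genes were called), and the median change was still 0.54. With the mouse as a random replicate block in that fit, 5 members were called, 4 of them higher (20.7% of all genes were called), a smaller share than among all genes. In a single fit of the 13 libraries without Ctrl IL 3546, 6 members rose and 1 fell (13.6% of all genes were called). Leaving out each cKO library in turn, between 30 and 54 members were called, fewest without cKO IL 784 (11.4% of all genes were called then, and 11.3% to 20.6% over the 6 fits). When the reads of each member were added to those of its copies, 77 of the 89 rose and none fell (12.6% of all genes were called higher). In this count 9 members share their sum with another member, and 74 of the 84 distinct sums rose.

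Other markers differed between the hemispheres as well. The summed level of the 13 microglial markers was 46449 to 48486 CPM in cKO CL and 31464 to 37182 CPM in cKO IL, and that of 9 monocyte markers was 158 to 460 CPM in CL and 708 to 1093 CPM in IL. The sum of 9 neutrophil markers was 1331 to 2386 CPM in CL and 893 to 1138 CPM in IL, and that of 12 dissociation response genes was 35107 to 47976 CPM in CL and 24210 to 28266 CPM in IL. The sums did not overlap between the groups for any of these 4 lists, and none of the genes in them was at 0 in a library. Those of 7 B cell markers (659 to 758 CPM in CL, 322 to 491 CPM in IL), 10 T and NK cell markers (46.9 to 75.9 and 39.5 to 41.2 CPM) and 16 mitochondrially encoded genes (2798 to 3443 and 3465 to 3873 CPM) did not overlap either, with Pax5, Cd3e, Cd3d and Trac each at 0 in at least 1 library. Their part in the change of the ribosomal protein genes was not tested. Short transcripts outside the group moved in the same direction. In cKO the median change was 0.46 for 287 other genes of up to 600 bases, of which 47.4% were called higher, 0.28 for 669 genes of 600 to 1000 bases, 0.09 for 2263 of 1000 to 2000 bases, -0.01 for 3839 of 2000 to 4000 bases and -0.10 for 2608 longer genes. The part of transcript length in the change of the members was not tested.

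In Ctrl mice the same comparison gave no common direction with all 8 libraries. The members summed to 4522 ± 893 CPM (SD, n = 4) in Ctrl CL and 4768 ± 1851 CPM (n = 4) in Ctrl IL, and the groups overlapped. The median change was -0.01, with 41 of 89 members above 0, and only Rpl10 was called, as lower (7.52% of all genes were called). No member had all Ctrl IL libraries above all Ctrl CL libraries, while 6.26% of all genes did. By mouse, the median member was higher in IL than in CL by 0.29 in mouse 3541, 0.54 in mouse 3545 and 0.25 in mouse 3551 (log2), and lower in mouse 3546, at -0.98. In the former 3 mice 79, 82 and 69 of the 89 members were higher in IL, and in mouse 3546 only 6 were. In the cKO mice with both hemispheres the medians were 0.40 (mouse 791) and 0.64 (mouse 3592).

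Without Ctrl IL 3546, and with its partner Ctrl CL 3546, the lowest of its group, kept, the Ctrl change came close to that in cKO. The median member change was then 0.53 (1.44-fold) with 82 of 89 members above 0, against 0.56 in cKO. Of the 61 members that rose in cKO, 60 were above 0. Without both libraries of mouse 3546 the median was smaller, at 0.34. With 3 IL and 4 CL libraries, 5 of the 89 members rose, among them Rpl34, Rpl36al, Rpl41 and Rps27l. This share is close to that of all genes, of which 5.59% were called higher. Of these 5 members 4 also rose in cKO, as did 61 of all 89. Rps27l changed by 0.97 ± 0.21 (adjusted p = 0.0195, limma), with 38.9, 35.1, 22.9 and 40.5 CPM in Ctrl CL and 59.6, 62.5 and 61.2 CPM in the remaining Ctrl IL libraries, the left-out library having 8.02 CPM. The changes of Rpl41, Rpl36al and Rpl34 were 0.83, 0.77 and 0.69, with adjusted p of 0.0468, 0.0292 and 0.0482 (limma). In Ctrl the 13 microglial markers summed to 47867 to 54821 CPM in CL and 31949 to 34162 CPM in IL without that library, the monocyte markers to 273 to 793 and 763 to 984 CPM, the neutrophil markers to 1404 to 8307 and 892 to 1438 CPM, and the dissociation response genes to 30461 to 39922 and 22595 to 26055 CPM. The B cell markers summed to 552 to 837 CPM in CL and 324 to 352 CPM in IL, the T and NK cell markers to 43.7 to 54.4 and 26.9 to 37.8 CPM, 6 astrocyte markers to 208 to 225 and 122 to 142 CPM, and the mitochondrially encoded genes to 2482 to 2979 and 3045 to 3457 CPM. Of these 8 lists, those of monocyte and neutrophil markers overlapped between the groups. In Ctrl IL 3546 the microglial sum was 30951 CPM, the monocyte sum 1300.0 CPM and that of the mitochondrially encoded genes 2747 CPM, within the CL range. Their part in the change of the members was not tested. In the fit of 13 libraries, which shares the spread over all groups, 30 members rose in Ctrl and 1 fell (9.46% of all genes were called higher), against 6 and 1 in cKO in that same fit. Leaving out both libraries of mouse 3546 gave a median of 0.34 with 80 members above 0. A fixed replicate block for the mouse, over all 8 libraries, gave 4 called members, Rpl4, Rpsa and Rps2 higher and Rpl10 lower (20.5% of all genes were called). The random block gave 4, all lower (28% of all genes were called), so both shares were below those of all genes.

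**Figure D4:**
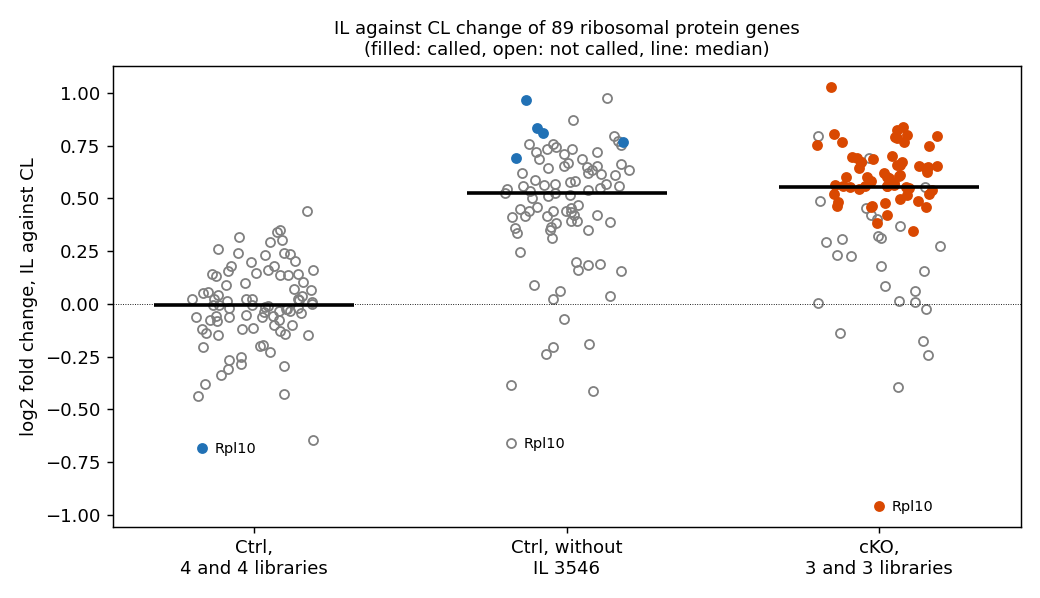
Log2 fold change between IL and CL (y axis) of each of the 89 ribosomal protein genes, in Ctrl with all libraries, in Ctrl without the IL library of mouse 3546 and in cKO (x axis). Filled points passed the test, open points did not, and lines are medians, at -0.01, 0.53 and 0.56. The second set keeps Ctrl CL 3546, and without both libraries of that mouse the median was 0.34 (not drawn).

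The genotypes were then compared in their response. In the genotype by hemisphere interaction over 14 libraries no member and no other gene was called by limma (0% of 18476 genes), and 1 member, Rpl39l, and 477 genes in all had an unadjusted p under 0.05. The median member difference, cKO response less Ctrl response, was 0.52 with 85 of 89 members above 0, against 0.00 for all genes, and it was -0.03 with 36 above 0 without Ctrl IL 3546. Without both libraries of mouse 3546 it was 0.14 with 78 above 0, so both the sign and the size of this median depended on which libraries of that mouse were used. Rpl39l had an interaction of 1.31 ± 0.53 (unadjusted p = 0.0264, adjusted p = 0.9997, limma). Its Ctrl values were 0.505, 2.81, 0.953 and 2.99 CPM in CL and 0.455, 2.45, 0.327 and 1.58 CPM in IL, in each mouse lower in IL than in CL. The Ctrl change of Rpl39l, -0.29 ± 0.40, did not pass (adjusted p = 0.757, limma), and it was -0.07 ± 0.39 without Ctrl IL 3546. The next lowest unadjusted p in the group were those of Rpl9 (0.126, at 0.37 ± 0.23) and Rpl10a (0.157, at 0.33 ± 0.22).

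Between genotypes in the IL hemisphere, no ribosomal protein gene was called (limma, 0.67% of 16873 genes were called), and 3 members, Rps3a3, Rpl34 and Rpl39l, had an unadjusted p under 0.05, as did 1559 of all genes. Rpl39l had a change of 0.93 ± 0.35 (adjusted p = 0.422, limma), with 0.327 to 2.45 CPM in Ctrl IL and 2.40 to 3.77 CPM in cKO IL, which overlap. The median change, cKO against Ctrl, was 0.39 with 79 of 89 members above 0. Without Ctrl IL 3546 it was -0.13 with 13 above 0, and 1 member, Rpl34, was then called, as lower (1.78% of all genes were called). The summed level was 5067 to 5373 CPM in cKO IL, and 5358 to 6091 CPM in the Ctrl IL libraries other than 3546, which had 2030 CPM. In the CL hemisphere the median change was -0.14 with 7 of 89 above 0, and 1 member, Rpl34, was called (0.903% of 16603 genes were called). The summed levels of 3595 to 4188 CPM in cKO CL and 3191 to 5081 CPM in Ctrl CL overlapped through Ctrl CL 3546. Without that library, the median change was -0.34 with 5 above 0, and it was -0.06, -0.07 and -0.07 with 29, 27 and 28 above 0 without Ctrl CL 3541, Ctrl CL 3551 and cKO CL 3592. Rpl35a had the second lowest p in CL, with 15.2, 13.8, 9.84 and 18.7 CPM in Ctrl and 5.71, 7.71 and 9.06 CPM in cKO. These groups did not overlap, and the change of -0.81 ± 0.25 did not pass (adjusted p = 0.250, limma).

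For Rpl34, a large subunit protein, and some other members the pattern differed from that of a near-identical copy. Rpl34 and Rpl34-ps1 (chr6:71124610-71124963, plus strand, annotated as a pseudogene) are equal at 352 of 354 aligned bases, so reads from the aligned part can be told apart only where they cover a difference, while 49.4% of the stretches of Rpl34 are its own. Rps3a1 and its copy Rps3a3 (chr13:108670603-108671397, plus strand, a processed pseudogene) are equal at 786 of 795. A 30-base stretch of each gene of these pairs is printed 5' to 3' from GENCODE M21 (GRCm38), with the differing base in capitals.
Rpl34 (chr3:130729070-130729099, minus strand): gaaagcacctaaatcTgcatgtggcgtgtg
Rpl34-ps1 (chr6:71124726-71124755, plus strand): gaaagcacctaaatcCgcatgtggcgtgtg
Rps3a1 (chr3:86141363-86141392, minus strand): tgaagtgagccttgcTgatctacagaatga
Rps3a3 (chr13:108670803-108670832, plus strand): tgaagtgagccttgcCgatctacagaatga
No such stretch can be shown for Rpl10 and Rpl10-ps3 or for Rps27 and Rps27rt, which are equal over all 740 and all 341 aligned bases.

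Rpl34 had 21.7, 21.6, 16.8 and 28.5 CPM in Ctrl CL and 6.71, 7.20 and 8.18 CPM in cKO CL, a change of -1.42 ± 0.21 (adjusted p = 0.0107, limma). The groups were apart. Without Ctrl CL 3545, cKO CL 788 or cKO CL 791 this change was -1.40, -1.38 or -1.41 and did not pass. In IL it had 31.5, 34.7, 8.48 and 32.4 CPM in Ctrl and 8.79, 6.95 and 8.18 CPM in cKO, a change of -1.45 ± 0.48 that did not pass with Ctrl IL 3546 (adjusted p = 0.350, limma) and passed without it, at -1.95. Rpl34-ps1 went the other way, with 9.01, 7.81, 6.45 and 16.1 CPM in Ctrl CL and 19.6, 20.1 and 21.2 CPM in cKO CL, and its change of 1.08 ± 0.26 did not pass (adjusted p = 0.126, limma). In IL, Rpl34-ps1 had 12.9, 14.9, 4.12 and 15.4 CPM in Ctrl and 28.9, 26.2 and 34.2 CPM in cKO. All cKO libraries lay above all Ctrl libraries. With its copies added, Rpl34 had 30.8, 29.7, 23.2 and 47.6 CPM in Ctrl CL and 27.0, 27.5 and 29.8 CPM in cKO CL, so the groups overlapped, and the change was -0.14. Rpl34 was thus the sole member called between genotypes in CL, and this call did not remain when its copies were counted with it, nor in the single fit of 14 libraries without or with the mouse as a random replicate block (-1.41 and -1.39). In the fit of 13 libraries without Ctrl IL 3546 the change was -1.40 and was called (2.05% of all genes were called).

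Rps3a1, a small subunit protein also known as eS1, split by mouse. In Ctrl it had 64.9 to 115 CPM in CL and 47.1 to 130 CPM in IL, and Rps3a3 stayed at 1.04 to 8.55 CPM in the 8 libraries. In cKO mouse 791, Rps3a1 had 93.6 CPM in CL and 112 CPM in IL, and Rps3a3 had 2.29 and 2.96 CPM. In cKO mouse 3592, Rps3a1 had 40.6 and 62.3 CPM and Rps3a3 24.8 and 39.2 CPM. The cKO CL library of mouse 788 had 47.0 CPM of Rps3a1 and 31.95 CPM of Rps3a3, and the cKO IL library of mouse 784 had 16.5 and 80.6 CPM. Their sum with the other copies was 153 to 185 CPM in cKO CL and 229 to 232 CPM in cKO IL, so it varied much less within a group than either gene. Rps3a3 had the lowest p of the members between genotypes in IL (2.60 ± 0.86, adjusted p = 0.341, limma), and Rps4l, a relative of Rps4x with 82.0% of its stretches its own, was among the 3 lowest in CL (0.49 ± 0.19, adjusted p = 0.391, limma). Neither passed. Without cKO IL 791, the library with little Rps3a3, the change of Rps3a3 in IL was 3.86 and passed the test.

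Rpl10, which joins the large subunit late in its assembly, was the sole member called lower in IL in both genotypes. It had 28.5, 28.0, 35.8 and 49.7 CPM in Ctrl CL and 18.1, 18.8, 20.4 and 22.5 CPM in Ctrl IL, a change of -0.68 ± 0.17 (adjusted p = 0.0401, limma). The Ctrl call was lost whichever of the 8 Ctrl libraries was left out, with changes from -0.75 to -0.54. In cKO it had 44.5, 34.0 and 34.6 CPM in CL and 22.3, 16.2 and 16.0 CPM in IL, a change of -0.96 ± 0.18 (adjusted p = 0.00868, limma). The groups were apart in both genotypes, Ctrl IL 3546 included. Only 7.87% of its stretches are its own. Rpl10-ps3, with 191, 207 and 175 CPM in cKO CL and 266, 247 and 258 CPM in cKO IL, held most of the reads of the pair and rose by 0.50 ± 0.10 (adjusted p = 0.0120, limma). With its copies added, Rpl10 had 238, 244 and 212 CPM in cKO CL and 291, 265 and 277 CPM in cKO IL, and the change was 0.33. Adding the copies thus turned the direction in cKO, and in Ctrl it left a change of -0.02. That value holds Ctrl IL 3546, at 111 CPM with copies, while the other Ctrl IL libraries had 297 to 338 CPM and Ctrl CL 196 to 305 CPM. Rps27 also had all IL libraries below all CL libraries in both genotypes, at 0.767 to 2.61 against 3.02 to 5.02 CPM in Ctrl and 1.69 to 2.76 against 2.94 to 4.57 CPM in cKO, and passed the test in neither (adjusted p = 0.205 and 0.197, limma). Rpl9 in Ctrl was lower in IL without overlap, at 4.15 to 5.68 against 5.94 to 9.02 CPM (-0.38 ± 0.17, adjusted p = 0.242, limma). Of its stretches, 13.3% are its own.

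**Figure D5:**
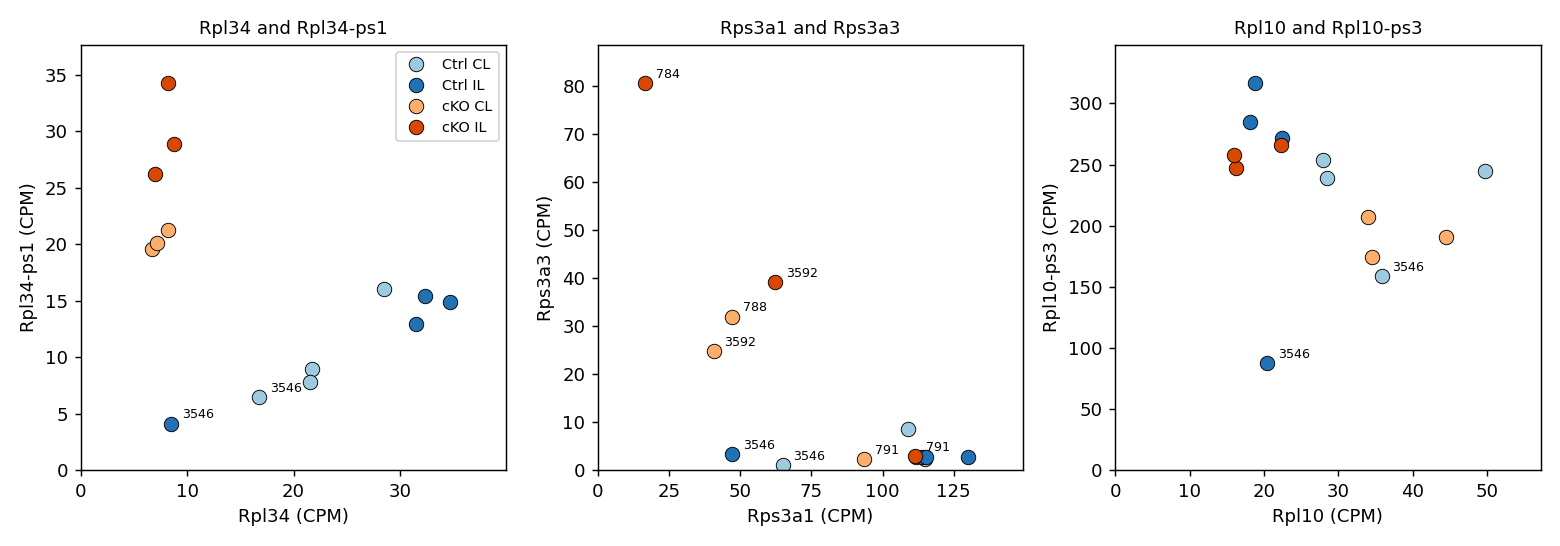
Level of a ribosomal protein gene (x axis, CPM) and of a near-identical copy (y axis, CPM) in each library, coloured by group, for Rpl34 and Rpl34-ps1, Rps3a1 and Rps3a3, and Rpl10 and Rpl10-ps3. The cKO libraries hold little Rpl34 (6.71 to 8.79 CPM) and much Rpl34-ps1 (19.6 to 34.2 CPM), and the libraries of cKO mice 784, 788 and 3592 hold Rps3a3 at 24.8 to 80.6 CPM.

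Across libraries the members varied as a group. The correlation of 2 members over the 14 libraries had a median of 0.88 (Pearson's r on log2 levels), and 61 members had r above 0.9 with the median member. Without Ctrl IL 3546 these values were 0.82 and 51. Rpl32 followed the median most closely, with r of 0.997, and Rps19 had r of 0.994. Those least like it were Rpl10 (-0.14), Rpl9 (-0.11), Rps12 (0.17), Rps3a3 (0.19) and Rpl5 (0.19). Without Ctrl IL 3546 these had r of -0.65, -0.45, -0.28, 0.11 and 0.64, so Rpl5 and Rps3a3 were no longer among the 5 least alike, and Rps27 (-0.30) and Rpl10a (-0.28) were. These points share their libraries, and the values are a description.

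Other genes of translation were examined beside the group, from lists chosen by function. Their counts in cKO stand against 12.3% of all genes called higher and 10.8% called lower, and those in Ctrl without Ctrl IL 3546 against 5.59% and 4.32%. In Ctrl, 3594 of all 16376 genes had an unadjusted p under 0.05 (limma). Without Ctrl IL 3546, 4382 of 16745 had. Of 3 ribosomal proteins with other names, all rose in cKO IL against CL, among them Fau by 0.54 ± 0.12 and Rack1 by 0.82 ± 0.11, and none passed in Ctrl, where 1 had an unadjusted p under 0.05 (limma) and, without Ctrl IL 3546, all 3 had. Of 16 genes of elongation and other TOP mRNAs, 10 rose and 1 fell in cKO, with a median change of 0.42. The largest rise was that of Eef1g, an elongation factor subunit, by 0.77 ± 0.10, followed by Tpt1 and Eef2 by 0.63 ± 0.09 and 0.55 ± 0.11, and Eef1d by 0.53 ± 0.09. Gas5, a non-coding TOP transcript that hosts small nucleolar RNAs, fell, with -0.70 ± 0.12 in cKO and -0.91 ± 0.14 in Ctrl (adjusted p = 0.00785 and 0.00386, limma). In Ctrl, Pabpc1, a poly(A) binding protein, rose by 0.58 ± 0.12, and these were also the genes of the list called without Ctrl IL 3546 (-0.94 and 0.61). Of 15 genes that carry the name of an initiation factor, 11 rose and 1 fell in cKO. The largest rises were those of Eif5a by 0.89 ± 0.14, Eif4a1 by 0.64 ± 0.10, Eif4g1 by 0.61 ± 0.14 and Eif2s1 by 0.60 ± 0.11. Eif4a2, a helicase related to Eif4a1, fell in both genotypes, with -0.82 ± 0.10 in cKO and -0.79 ± 0.17 in Ctrl. Eif3a rose in Ctrl by 0.52 ± 0.13 with all libraries, and Eif4a2 (-0.93) was the 1 gene of this list called there without Ctrl IL 3546.

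Of 38 genes of ribosome biogenesis, 10 rose and none fell in cKO, led by the assembly factors Rrp12 by 0.92 ± 0.21, Nhp2 by 0.89 ± 0.12, Rrs1 by 0.86 ± 0.11, Bysl by 0.61 ± 0.12 and Eif6 by 0.57 ± 0.09, with a median of 0.22 for the list. None of these passed in Ctrl, where 5 of the 38 had an unadjusted p under 0.05 (limma), a smaller share than the 3594 of all 16376 genes. Nhp2 rose in Ctrl by 0.91 ± 0.21 and Taf1d fell, with -0.52 ± 0.14, once Ctrl IL 3546 was left out. Of 20 genes of the mTORC1 pathway, 3 rose in cKO, namely Eif4ebp1, the translation repressor that mTORC1 inactivates, by 1.21 ± 0.14, Lamtor1 by 0.40 ± 0.08 and Rragc by 0.33 ± 0.08. Sesn1, a sestrin that restrains mTORC1, had a change of -0.97 ± 0.17 and Rptor, the scaffold of the complex, of -0.71 ± 0.09, both called lower. These shares of the list are close to those of all genes. In Ctrl Rragc rose by 0.64 ± 0.14 and Sesn1 fell, with -0.71 ± 0.18, and without Ctrl IL 3546 Eif4ebp1 (1.19 ± 0.27) and Rraga (-1.12 ± 0.16) passed as well. Of 83 mitochondrial ribosomal protein genes 35 rose and none fell in cKO, with a median of 0.35, examples being Mrpl54 by 0.78 ± 0.12, Mrpl28 by 0.75 ± 0.08, Mrpl12 by 0.71 ± 0.10, Mrpl20 by 0.65 ± 0.09 and Mrps18c by 0.62 ± 0.11. With all Ctrl libraries none passed in Ctrl, where 1 had an unadjusted p under 0.05 (limma) and the median was 0.02. Without Ctrl IL 3546, the median was 0.33 and 33 had an unadjusted p under 0.05 (limma), as did 4382 of all 16745 genes. Of the list 7 rose (8.43%, against 5.59% of all genes), Mrpl54 (0.96 ± 0.20) and Mrpl28 (0.96 ± 0.23) among them. Of 214 pseudogenes with -ps names 89 passed the filter on low values in cKO, of which 43 rose and none fell in cKO, led by Rpl38-ps2 by 0.87 ± 0.15 and Rpl19-ps11 by 0.81 ± 0.11, and with all libraries none passed in Ctrl (limma, none with an unadjusted p under 0.05, median 0.04 over 90 tested). With Ctrl IL 3546 left out, the Ctrl median was 0.51 over 93 tested, and 39 had an unadjusted p under 0.05 (limma), as did 4382 of all 16745 genes. Of the 93, 4 rose (4.30%, against 5.59% of all genes), led by Rpl17-ps10 and Rpl28-ps1 by 0.87 ± 0.24 and 0.87 ± 0.19. No gene of these lists was called between genotypes in either hemisphere with all libraries. When Ctrl IL 3546 was left out, Heatr1 and Mybbp1a of the biogenesis list and Rpl34-ps1 were called higher in cKO IL, by 0.58 ± 0.11, 0.46 ± 0.09 and 0.97 ± 0.12, and the median of the mitochondrial list went from 0.16 to -0.17 and that of the pseudogenes from 0.28 to -0.10.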

How the data were processed

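The authors mapped reads with STAR to mm10 and analysed them in Partek Flow 8.0. The table they deposited as raw counts sums to 1e+06 in each library, so its values are CPM by the authors, and no count test was run on them although it had been planned for counts. Of the low values, 79.0% to 83.6% are whole multiples of a single step (tolerance 0.03), which gives the reads per library, and the other values are fractions of it. The columns of the authors' own comparisons (p-values, FDR, ratios, fold changes and group means) were not used.

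Values were divided by factors from a trimmed mean of M-values (30% and 5% trimmed, no weights) and taken as log2(CPM + 1), which understates changes of low genes. Genes entered at the CPM of 10 reads at median depth or more in a number of libraries equal to the size of the smaller group. limma 3.58.1 (R 4.3.3, empirical Bayes with trend) fitted the libraries compared, or all 14 for the interaction, after the fit had been tested on simulated data. Every one of the 89 members passed the filter in each comparison. Copies were found as exact 50-base stretches in GENCODE M21, at least 10% shared. Python 3.11.15 did the rest.

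Members, lists and rules were chosen with earlier results of these data known. The text names, per comparison, up to 5 called members with the largest rise and 5 with the largest fall and the 3 with the lowest p, further the paralogs with their partners, the 5 highest and 5 lowest members, Rps6, Rplp0, Rpsa, Rps27a, Rpl13a, Rpl41 and Rps19bp1, and up to 5 called genes per other list. Copies, and members named for an overlap or a likeness, were chosen after their values were seen. Mouse numbers pair the hemispheres, with r of 0.18 to 0.60 for the 6 mice that gave both. The cKO numbers 784 and 788 were taken as different mice, though their libraries had an r of 0.18 as well (0.70 over the members). Each library is 1 hemisphere of 1 mouse. Alternatives were other scalings, pseudocounts, filters, fits over all libraries, the mouse as a block and each library left out. Those that add copies, leave out both libraries of mouse 3546, fit 13 libraries or take 784 and 788 as 1 mouse were chosen after seeing the data. A few genes that these rules name are not reported here.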

Additional observations from a re-analysis of the deposited data

Results flagged for a closer look

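Single libraries that stood far from the other 3 of their group were found with Dixon's test, at its 95% critical value for 4 samples, which chance passes in about 1 in 20 groups. Over all 89 members this happened for 11 in Ctrl CL and 33 in Ctrl IL, 32 of the latter with mouse 3546 lowest. Among the values named in the report, the summed members in Ctrl CL 3546 (3191 CPM) and Rpl13a in the same library (73.0 CPM) lay below the rest of their group. In Ctrl IL 3546 the summed mitochondrial ribosomal protein genes (1324 CPM) did so, as did Rpl19 (14.2 CPM), Rpl34 (8.48 CPM), Rpl35a (3.04 CPM), Rpl36al (17.7 CPM), Rpl41 (9.05 CPM), Rps19bp1 (5.97 CPM) and Rps27a (4.26 CPM).

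Rpl39l was called higher in IL in cKO and was not called in Ctrl. Its CPM was lower in IL than in CL in all 4 Ctrl mice, but the Ctrl change was -0.29 ± 0.40 (adjusted p = 0.757, limma). Without Ctrl IL 3546 it was -0.07 ± 0.39 (adjusted p = 0.934, limma). In both cKO mice with both hemispheres Rpl39l was higher in IL, with a median difference of 1.12 (log2). The interaction had an unadjusted p of 0.0264 and an adjusted p of 0.9997 (limma), at 4 to 113 reads per library.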

How the results depend on the processing

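The median change of the members turned in sign without Ctrl IL 3546 for cKO against Ctrl in IL, for IL against CL in Ctrl and for the interaction, and the SD of library medians within groups (0.57, log2) holds that library too. The median ranged, with each library left out, from -0.13 to 0.62 for cKO against Ctrl in IL, from -0.34 to -0.06 in CL, from -0.25 to 0.53 for IL against CL in Ctrl, from 0.46 to 0.59 in cKO and from -0.03 to 0.76 for the interaction. The number of members called moved more. For IL against CL in cKO, 62 members were called (23.1% of all genes). All 14 libraries in a single fit gave 1 (10.1%) and the fit of 13 libraries gave 7 (13.6%). The mouse as a random replicate block gave 5 (20.7%). As a fixed block, which rests on mice 791 and 3592, it gave 40 (14.7%). A fixed block that takes 784 and 788 as 1 mouse gave 63 (26.9%). With a library left out, 30 to 54 were called (11.3% to 20.6%). For IL against CL in Ctrl, 1 member was called (7.52% of all genes), and 0 with no filter on low values (1.64%). A fixed replicate block gave 4, 3 higher and 1 lower (20.5%), and a random one 4, all lower (28%). With a library left out it was 0 to 5 (3.37% to 9.91%). With copies added it was 0 (7.46%), and with copies and without Ctrl IL 3546 it was 7 (9.9%). Without both libraries of that mouse it was 5 (9.06%). The 7 and the 5 are smaller shares than among all genes. The fit of 13 libraries gave 31 (17.9%). For cKO against Ctrl in CL (1 called, 0.903% of all genes) it was 0 in a single fit of 14 libraries (1.66%). It was also 0 in that fit with a random replicate block by mouse (1.78%) and with copies (0.897%). The fit of 13 libraries gave 1 (2.05%), and a library left out gave 0 to 1 (0.38% to 0.978%). In IL (0 called, 0.67%) it was 0 to 1 with a library left out (0.249% to 1.78%) and 1 in the fit of 13 libraries (1.04%). Why the counts moved was not tested. With copies added, some members turned in direction. Rpl10 in cKO was then at 0.33 for IL against CL, and Rpl34 at 0.15 for cKO against Ctrl in IL. The turn of Rpl34 rests on Ctrl IL 3546, at 13.3 CPM with copies. The other Ctrl IL libraries had 44.7 to 50.2 CPM, above the 33.6 to 43.2 CPM of cKO IL. With copies and without Ctrl IL 3546, Rps3a3 was at -0.070 for cKO against Ctrl in IL, and Rpl10, Rps27 and Rpl9 were at 0.39, 0.15 and 0.47 for IL against CL in Ctrl. Depth limits the low members most, the fewest reads of a member being 3.21 in Ctrl IL 3546.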
